A study of Rattus norvegicus with 15 samples.

Results

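Microglia and the macrophages of the brain's borders are the resident immune cells of the embryonic cortex, and their RNA was followed here through 10 genes: Csf1r, Spi1, Cx3cr1, P2ry12, Trem2, Aif1, C1qa, C1qb, C1qc and Mrc1. They were chosen by gene name as markers of these cells and not by a rule on measured values, though earlier results of these data were known. They are 10 of the 32623 genes counted. The RNA came from frontal cortex of Wistar rat embryos taken at stage E14.5 (embryonic day of gestation), E16.5 or E18.5. Control mothers ate normal chow. HFD mothers were given a diet with 60% of calories from fat after weaning, were mated with healthy males once obese, and per the study stayed on the diet in gestation. Every library was made from total RNA depleted of ribosomal RNA, and per the study's methods each held the pooled cortices of 1 litter, so that the libraries of a group stand for separate litters. There were 3 control and 2 HFD libraries at each stage, 15 in all. The diet acted on the mother, and a library carries no information on single embryos.

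Microglia arise from early myeloid progenitors of the yolk sac, enter the brain before most of its own glia are born, and survive there only with signals through CSF1R. Within the cortex they engulf dying cells and surplus progenitors and produce C1q, the molecule that starts the classical complement cascade. A related population, the border macrophages, lives in the meninges and around vessels and carries the mannose receptor MRC1, which parenchymal microglia lose as they mature. In bulk cortex a lower level of such a gene can come from fewer of these cells or from less of its RNA per cell, and the design cannot tell them apart.

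Library totals ran from 5598195 to 9529978 counts. Levels are given as TMM-scaled CPM, which sets each count against the adjusted total of its library, and the 10 genes together had 240 to 593 counts in a library, so a single count was worth 0.106 to 0.187 CPM. The library labelled E18.5 control replicate 1 stood apart from its group: its head mesenchyme genes summed to 4691 CPM, against 797 and 1266 in the other E18.5 controls and 1761 to 5634 in the E14.5 controls. It is shown separately, the tests used the other 14 libraries, and results that change when it is included are given with it. Of the 10 genes, 9 passed the filter on low counts and were tested among 15354 genes. Trem2 did not pass.

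Markers of neutrophils, monocytes and lymphocytes were low, while red cell and endothelial genes were abundant. Genes of neutrophils and monocytes summed to 0.946 to 5.32 CPM and genes of lymphocytes to 0.760 to 3.60 CPM over all 15 libraries. Some single members were as low, such as Cx3cr1 at 0.514 to 3.28 CPM. The osteoclast list summed to 9.96 to 31.8 CPM, and 1 of its genes, Calcr, had a mean of 19.0 CPM at E18.5 (n = 4). Endothelial genes summed to 199.9 to 360.3 CPM and red cell genes to 733 to 2284 CPM. The mast cell list summed to 45.0 to 114 CPM, nearly all of it Kit, which neural cells also express; its other 5 genes together had 0.187 to 2.66 CPM.

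The 3 C1q chains were the clearest change over time. C1qa, C1qb and C1qc encode the A, B and C chains that assemble into 1 C1q molecule, and RefSeq places the genes side by side on chromosome 5 in the order C1qb, C1qc, C1qa. All of them were 2.02- to 2.08-fold higher at E18.5 than at E16.5, with no E18.5 library as low as any E16.5 library. Between E14.5 and E16.5 none of the 3 passed the test, although in HFD libraries alone C1qb fell by 1.01 on the log2 scale (adjusted p = 0.0475).

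C1qa measured 3.43, 2.75 and 1.97 CPM in E14.5 control and 2.43 and 2.12 in E14.5 HFD. At E16.5 it measured 2.99, 4.31 and 2.44 CPM in control and 2.41 and 2.37 in HFD. At E18.5 it measured 7.05 and 5.55 CPM in control and 5.35 and 5.23 in HFD. The 4 E18.5 libraries thus lay above all 10 earlier ones, the lowest of them at 5.23 CPM against an earlier highest of 4.31 CPM. Averaged over diets, C1qa was higher at E18.5 than at E16.5 by 1.05 ± 0.22 on the log2 scale (log2 fold change ± SE, edgeR's quasi-likelihood test, Benjamini-Hochberg adjusted p = 0.00602). Against E14.5 it was higher by 1.22 ± 0.22 (adjusted p = 0.000493).

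C1qb measured 5.83, 3.21 and 3.36 CPM in E14.5 control and 4.73 and 5.72 in E14.5 HFD. It then measured 4.49, 5.14 and 2.97 CPM in E16.5 control and 2.66 and 2.50 in E16.5 HFD. At E18.5 the controls held 8.25 and 6.15 CPM and the HFD libraries 5.87 and 7.10. The E18.5 libraries were again the highest 4, although the gap to the highest E14.5 library was small. The rise from E16.5 was 1.06 ± 0.24 (adjusted p = 0.00755) and the difference from E14.5 was 0.57 ± 0.23 (adjusted p = 0.0476). The latter lost its call without any 1 of 12 of the 14 libraries, with adjusted p from 0.00950 to 0.223 over all such omissions.

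C1qc behaved as its neighbours did. Its levels were 5.48, 3.32 and 3.83 CPM in E14.5 control and 3.58 and 5.08 in E14.5 HFD, then 4.30, 5.14 and 2.86 CPM in E16.5 control and 2.66 and 3.56 in E16.5 HFD. They reached 6.52 and 8.20 CPM in E18.5 control and 8.11 and 6.05 in E18.5 HFD, above all earlier libraries. C1qc rose by 1.02 ± 0.24 from E16.5 (adjusted p = 0.00931) and was 0.76 ± 0.23 higher at E18.5 than at E14.5 (adjusted p = 0.0129). The call against E14.5 was lost without E14.5 HFD replicate 1 (adjusted p = 0.0801), without E18.5 control replicate 3 (0.0708) and without E18.5 HFD replicate 1 (0.0574).

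**Figure D1:**
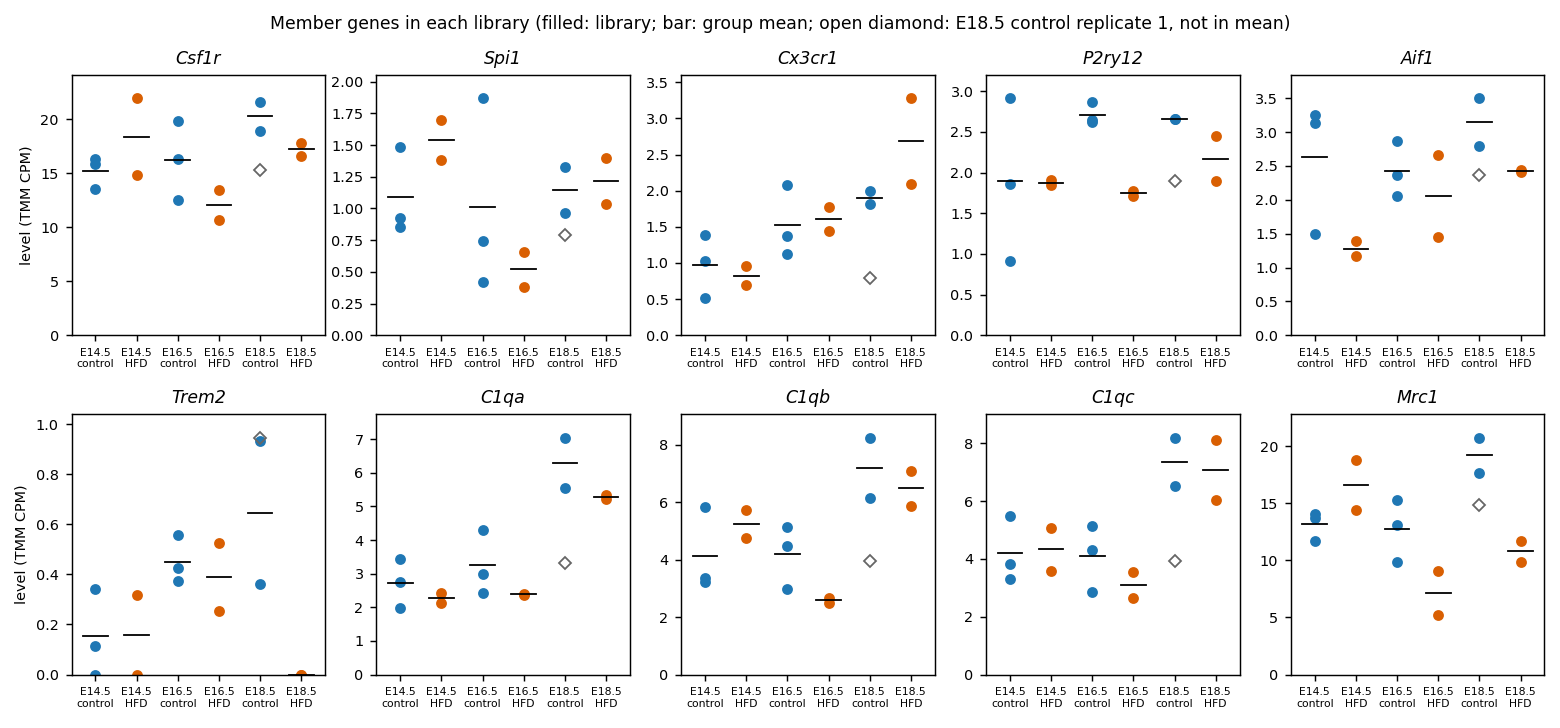
Level of each of the 10 genes in TMM-scaled CPM (vertical axis, from 0, 1 panel a gene) in every library of the 6 groups of stage and diet (horizontal axis). Points are libraries in blue (control) or orange (HFD), bars are group means, and the open diamond is the library labelled E18.5 control replicate 1, left out of the mean. The C1q genes step up at E18.5 in both diets, the diamond does not share that step, and the orange points of Mrc1 lie below the blue ones at E16.5 and E18.5 but above them at E14.5.

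Summed over the 3 chains, C1q was 11.1 ± 3.19 CPM in E14.5 control (SD, n = 3) and 11.8 ± 1.54 in E14.5 HFD (n = 2). It was 11.5 ± 3.17 CPM in E16.5 control (n = 3) and 8.08 ± 0.50 in E16.5 HFD (n = 2). It reached 20.9 ± 1.35 CPM in E18.5 control and 18.9 ± 0.67 in E18.5 HFD (n = 2 each). The chains took 27.8 to 34.4% of the counts of the 10 genes in the E18.5 libraries and 20.7 to 28.0% in the earlier ones, so their share of this group also stepped up, with a small overlap.

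The E18.5 calls against E16.5, and those of C1qb and C1qc against E14.5, depended on leaving out the library set apart. It held 3.31 CPM of C1qa, 3.94 of C1qb and 3.94 of C1qc, values within the range of the earlier stages. With it included, none of the 10 genes passed the test between E18.5 and E16.5: the C1q changes were 0.93 ± 0.25, 0.94 ± 0.26 and 0.90 ± 0.26 with adjusted p of 0.0576, 0.0590 and 0.0704. The share of all genes called higher at E18.5 then fell as well, from 10.6% to 1.48%. Against E14.5, 2 of the 10 genes were called with all 15 libraries, where 26% of genes were called higher. C1qa remained (1.10 ± 0.25, adjusted p = 0.00429) and so did Cx3cr1 (1.14 ± 0.35, adjusted p = 0.0191).

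Within 1 diet the E18.5 libraries could be compared with fewer samples. In controls alone the rise of C1qa from E16.5 was 0.96 (adjusted p = 0.0584), of C1qb 0.79 (adjusted p = 0.125) and of C1qc 0.86 (adjusted p = 0.101). In HFD alone it was 1.14 (adjusted p = 0.0720) for C1qa and 1.18 (adjusted p = 0.0753) for C1qc, and C1qb kept its call. The direction was the same in each diet. The change with stage was not found to differ between diets for any C1q gene, although those tests were wide: the diet effect at E18.5 minus that at E16.5 was 0.18 for C1qa, with a 95% interval from -0.79 to 1.16.

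RefSeq promoter sequence was at hand for 6 of the 10 genes (Csf1r, Cx3cr1, C1qa, C1qb, Mrc1 and Trem2; build GRCr8). PU.1, the protein of Spi1, is the ETS factor on which the macrophage lineage depends, and ETS factors bind a GGAA core. The letters GGAAGT and GAGGAA were searched on both strands in the 250 bases before each gene's start. The motifs share 4 letters, so that a run can hold both. GGAAGT was found in 3 of the 6 promoters and in 19.2% of 33469 promoters of the same length, and GAGGAA in 4 of the 6 and in 23.3%. Shown are the stretches of the 2 C1q genes and of Mrc1 that hold the matches, since these genes carry the changes reported here, each read 5′ to 3′ on the gene's own strand with the matched letters of either motif, or of its reverse complement, in capitals.
C1qa, chr5:154419992-154420055, minus strand: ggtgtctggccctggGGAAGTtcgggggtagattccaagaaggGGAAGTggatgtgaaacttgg
C1qb, chr5:154407868-154408077, minus strand: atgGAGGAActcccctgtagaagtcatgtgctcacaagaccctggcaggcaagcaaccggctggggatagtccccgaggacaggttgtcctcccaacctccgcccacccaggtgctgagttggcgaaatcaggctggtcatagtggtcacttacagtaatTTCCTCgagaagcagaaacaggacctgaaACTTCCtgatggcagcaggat
Mrc1, chr17:82157499-82157710, plus strand: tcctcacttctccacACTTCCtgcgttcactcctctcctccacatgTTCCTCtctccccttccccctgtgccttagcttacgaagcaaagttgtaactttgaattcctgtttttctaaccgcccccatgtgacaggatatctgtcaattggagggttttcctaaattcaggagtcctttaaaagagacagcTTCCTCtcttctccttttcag
C1qa held 2 matches to GGAAGT and none to GAGGAA, while C1qb and Mrc1 each held 1 and 2. No match lay in the Cx3cr1 window, Trem2 had 1 match to GAGGAA and Csf1r 2. A match is a run of letters and not a measured binding site.

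The surface receptors did not move together. Cx3cr1, the receptor for the neuronal chemokine fractalkine, measured 0.51, 1.03 and 1.39 CPM in E14.5 control and 0.69 and 0.95 in E14.5 HFD. It measured 1.12, 2.08 and 1.38 CPM in E16.5 control and 1.77 and 1.45 in E16.5 HFD, and 2.00 and 1.81 CPM in E18.5 control against 3.28 and 2.09 in E18.5 HFD. All E18.5 libraries were above all E14.5 libraries, with E16.5 between and overlapping both. It was higher at E18.5 than at E14.5 by 1.28 ± 0.33 (adjusted p = 0.00489), and neither single step passed the test (0.78 ± 0.32, adjusted p = 0.0726, then 0.51 ± 0.32, adjusted p = 0.280). The library set apart held 0.789 CPM, within the E14.5 range.

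Csf1r, the receptor for the growth factors CSF1 and IL-34, showed no change that passed the test. It measured 16.3, 13.5 and 15.9 CPM in E14.5 control, 14.8 and 21.9 in E14.5 HFD, 19.8, 16.3 and 12.5 in E16.5 control, 10.6 and 13.4 in E16.5 HFD, 18.9 and 21.6 in E18.5 control and 16.6 and 17.8 in E18.5 HFD. The stages overlapped. From E16.5 to E18.5 it was 0.43 ± 0.16 higher, which missed the threshold (adjusted p = 0.0775), and it passed without E16.5 control replicate 1 (0.56, adjusted p = 0.0291). From E14.5 to E16.5 it differed by -0.27 ± 0.15 (adjusted p = 0.187), and passed without E14.5 HFD replicate 1 (-0.44, adjusted p = 0.0473). The libraries of a group differed by more than counting alone gives: the variance of Csf1r within groups was 3.89 times that of Poisson counts, and that of Mrc1 3.52 times, against 0.915 for Cx3cr1 and 1.07 for P2ry12.

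P2ry12, the purinergic receptor with which microglia sense ADP, measured 0.916 to 2.91 CPM at E14.5, 1.71 to 2.86 CPM at E16.5 and 1.90 to 2.66 CPM at E18.5. These ranges overlapped throughout, and the difference between E18.5 and E14.5 was 0.37 with a 95% interval from -0.26 to 1.00. Trem2, a lipid-sensing receptor of phagocytes, had between 0 and 7 counts in a library. Both E18.5 HFD libraries and 1 library in each E14.5 group had no count, which allows up to 0.346 to 0.518 CPM in those 4 libraries (3 counts, counting error only). Trem2 was too low to be tested, and its E18.5 control libraries had 7 and 3 counts, with 6 in the library set apart.

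Aif1, which encodes the actin-binding protein IBA1, measured 1.16 to 3.26 CPM at E14.5, 1.45 to 2.86 CPM at E16.5 and 2.42 to 3.50 CPM at E18.5. Its stages overlapped and no stage comparison passed the test. Spi1, the lineage factor named above, measured 0.857 to 1.69 CPM at E14.5, 0.380 to 1.87 CPM at E16.5 and 0.965 to 1.40 CPM at E18.5. Between E14.5 and E16.5 it differed by -0.88 ± 0.41, which missed the threshold (adjusted p = 0.107) but passed without E16.5 control replicate 1 (-1.26, adjusted p = 0.0175).

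Mrc1 was the only member called at both steps between stages, first lower and then higher. Csf1r, C1qb, C1qc and Spi1 had the same signs at these steps, without a call at the first. Mrc1 measured 14.05, 13.7 and 11.7 CPM in E14.5 control and 14.4 and 18.7 in E14.5 HFD. At E16.5 it measured 13.1, 15.3 and 9.86 CPM in control and 5.19 and 9.09 in HFD, and at E18.5 17.7 and 20.8 CPM in control and 11.7 and 9.89 in HFD. The lowest values of all were those of the E16.5 HFD pair and the highest that of an E18.5 control. Averaged over diets, Mrc1 fell by 0.63 on the log2 scale between E14.5 and E16.5 (SE 0.17, adjusted p = 0.0108) and rose by 0.60 ± 0.18 between E16.5 and E18.5 (adjusted p = 0.0353).

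The fall passed the test in HFD libraries alone and not in control libraries alone. In control libraries Mrc1 changed by -0.05 ± 0.22 between E14.5 and E16.5, and in HFD libraries by -1.22 ± 0.27 (adjusted p = 0.00497). From E14.5 to E18.5 Mrc1 differed by 0.55 ± 0.24 in control (unadjusted p = 0.0375, adjusted p = 0.0788) and by -0.62 ± 0.27 in HFD (unadjusted p = 0.0362, adjusted p = 0.0729). Neither passed the test, although in each diet the stages did not overlap, and the average of -0.04 ± 0.18 joins these opposite values. For both pairs of stages, the difference between the diets' changes is the same quantity as the change in diet effect given below, and neither passed the test across all genes. Without E16.5 HFD replicate 1 the fall over both diets was 0.46 with adjusted p = 0.0553. The later rise lost its call without any 1 of 6 libraries: E16.5 control replicate 3 (adjusted p = 0.0671), E16.5 HFD replicate 1 (0.138), E18.5 control replicates 2 and 3 (0.0619 and 0.104) and E18.5 HFD replicates 1 and 2 (0.0974 and 0.0626).

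**Figure D2:**
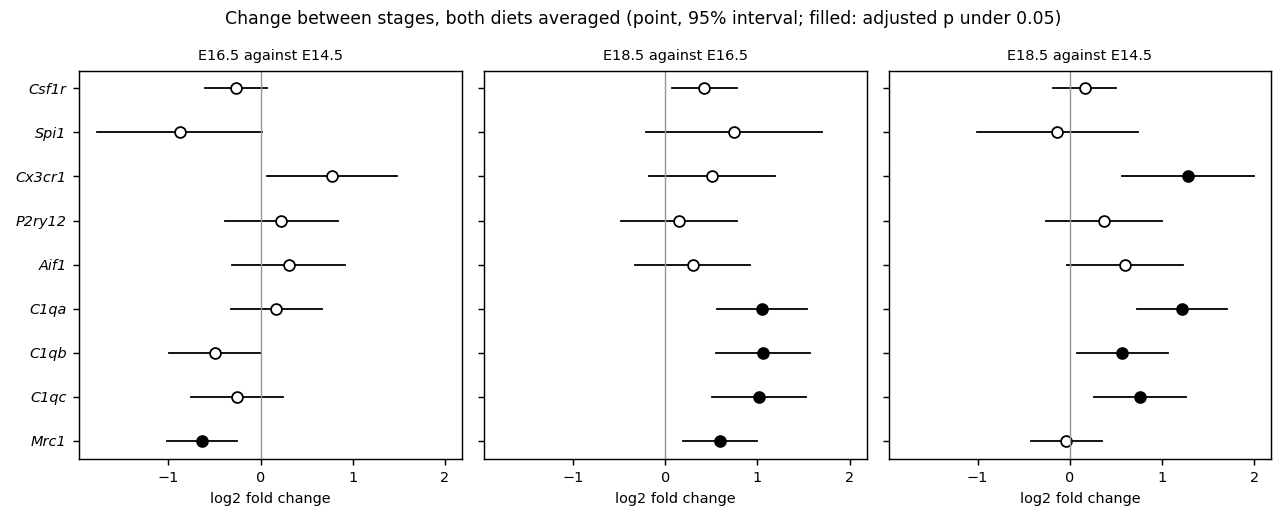
Log2 fold change between stages, averaged over diets, for the 9 tested genes (horizontal axis; 1 row a gene), in 14 libraries. Points are edgeR estimates, lines are 95% intervals, and filled points have an adjusted p under 0.05. Only Mrc1 is filled from E14.5 to E16.5, the 3 C1q genes and Mrc1 from E16.5 to E18.5, and the C1q genes and Cx3cr1 from E14.5 to E18.5.

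Set against all genes, 1 of the 9 tested genes was called lower at E16.5 than at E14.5, where 18.3% of all tested genes were. At E18.5 against E16.5, 4 of 9 were called higher, against 10.6% of all genes. At E18.5 against E14.5, 4 of 9 were called higher and none lower, against 29% of all genes called higher and 28.9% called lower. The stages as a whole therefore differed in a large share of the transcriptome.

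The sum of the 10 genes was 46.2 ± 5.68 CPM in E14.5 control (SD, n = 3) and 52.4 ± 10.2 in E14.5 HFD (n = 2). It was 48.6 ± 8.43 CPM in E16.5 control (n = 3) and 33.6 ± 4.49 in E16.5 HFD (n = 2), and 69.8 ± 2.44 CPM in E18.5 control against 55.3 ± 1.28 in E18.5 HFD (n = 2 each). The sum was lower in every HFD library than in every control library at E16.5 and at E18.5, and overlapped at E14.5. With the library set apart, at 48.1 CPM, the E18.5 groups overlapped, since it lay below both HFD libraries (56.3 and 54.4 CPM). Since Csf1r and Mrc1 gave most of these counts, the sum mainly restates them.

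For the maternal diet itself, no gene passed the test. In each of the 3 comparisons of HFD with control and in their average, 0% of the 15354 tested genes had an adjusted p under 0.05 in edgeR, and the 10 genes gave 0 calls. DESeq2 called 96 genes at E14.5, 0 at E16.5, 12 at E18.5 and 4 for the average, none of them among the 10. At an unadjusted p under 0.05, 9.62% of genes passed at E14.5, 2.36% at E16.5, 1.57% at E18.5 and 2.94% in the average. Among the 9 tested genes these were Aif1 at E14.5, Mrc1 at E16.5, Mrc1 at E18.5 and both of them in the average.

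Mrc1 was the gene of this group with the largest diet differences at E18.5. At E14.5 both HFD libraries were above all controls, with a difference of 0.34 ± 0.24 (95% interval -0.18 to 0.85). At E16.5 both were below all controls, with a difference of -0.83 ± 0.26 (interval -1.39 to -0.27, unadjusted p = 0.00719, adjusted p = 1). At E18.5 both were again below, with a difference of -0.84 ± 0.27 (interval -1.41 to -0.26, unadjusted p = 0.00822, adjusted p = 1), with the 14.8 CPM of the library set apart also above both. Averaged over stages the difference was -0.44 ± 0.15 (unadjusted p = 0.0104). The change in the diet effect from E14.5 was -1.17 ± 0.35 at E16.5 (unadjusted p = 0.00565, adjusted p = 0.416) and -1.17 ± 0.36 at E18.5 (unadjusted p = 0.00610, adjusted p = 0.719). In the 3 comparisons of diet effects between stages 0% of all genes and none of the 10 passed.

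Aif1 differed most at the first stage. In E14.5 control it measured 3.26, 1.49 and 3.13 CPM, and in E14.5 HFD 1.39 and 1.16, so that both HFD libraries were below all controls, 1 of which was close to them. The difference was -1.02 ± 0.41 (unadjusted p = 0.0281, adjusted p = 0.439). It was -0.25 ± 0.39 at E16.5 and -0.37 ± 0.42 at E18.5.

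Counting genes whose diet groups did not overlap, 1 of the 9 tested genes was lower (Aif1) and 1 higher (Mrc1) in HFD at E14.5, where 10.1% and 10.8% of all genes were. At E16.5, 4 of 9 were lower (P2ry12, C1qa, C1qb and Mrc1) and 0 higher, against 7.87% and 9.67% of all genes. At E18.5, 5 of 9 were lower (Csf1r, Aif1, P2ry12, C1qa and Mrc1) and 1 higher (Cx3cr1), against 14.9% and 14.1%. With the library set apart among the controls, 1 of 9 was lower at E18.5 (Mrc1) and 1 higher (Cx3cr1), against 9.99% and 9.01% of all genes. Trem2, which was not tested, had 0 and 0 counts in HFD at E18.5 against 7 and 3 in control and 6 in the library set apart. A count of 0 in E18.5 HFD replicate 1 allows up to 0.518 CPM, above the 0.362 CPM of E18.5 control replicate 3. The Trem2 counts therefore do not establish a separation. The 10 genes rise and fall together in part between libraries, so the members of such a count are not independent. Apart from Aif1 at E14.5 and Mrc1 at E16.5 and E18.5, the 95% intervals of these differences included 0. The difference was for P2ry12 -0.63 ± 0.40 at E16.5 and -0.28 ± 0.42 at E18.5, and for C1qb -0.68 ± 0.34 at E16.5 and -0.14 ± 0.33 at E18.5.

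**Figure D3:**
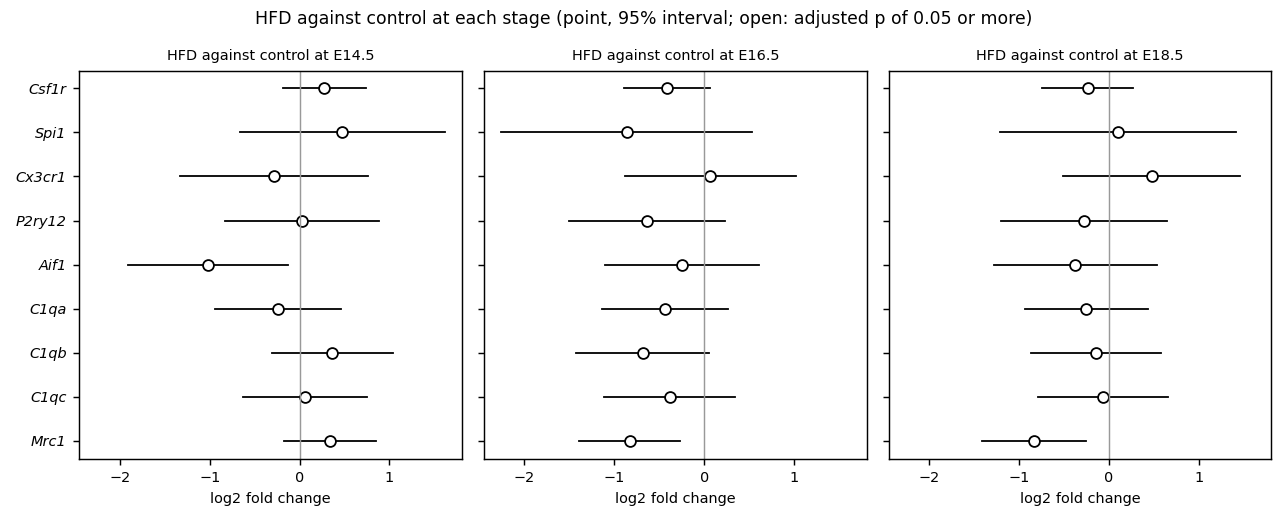
Log2 fold change of HFD against control at each stage (horizontal axis) for the 9 tested genes (1 row a gene). Points are edgeR estimates from 14 libraries and lines 95% intervals, and every point is open because no adjusted p was under 0.05. The intervals exclude 0 for Aif1 at E14.5 and for Mrc1 at E16.5 and E18.5, and at E16.5 the points of 8 of the 9 genes lie left of 0.

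Relative to the other 9 genes, Mrc1 was also low in HFD. It took 17.1 and 24.7% of the counts of the 10 genes in E16.5 HFD against 24.8, 28.2 and 25.3% in E16.5 control, and 20.9 and 18.2% in E18.5 HFD against 26.0 and 29.0% in E18.5 control. At E14.5 it took 31.9 and 31.4% in HFD against 26.7, 32.9 and 26.5% in control. Each HFD value at the later stages was thus below its controls, at E16.5 by a narrow margin for replicate 2, and at E14.5 the groups overlapped.

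Genes of head mesenchyme, border macrophages and endothelium mostly differed between diets in the same directions as Mrc1, with little difference for endothelium at E14.5. The head mesenchyme list has 10 genes, of which 9 were tested: 9 had a positive HFD difference at E14.5 (median 0.91, against -0.02 over all genes), 0 at E16.5 (median -0.94, against 0.01) and 2 at E18.5 (median -0.48, against 0.00), with none called. Its summed level was 1761 to 5634 CPM in E14.5 control and 4137 to 4731 in E14.5 HFD, then 654 to 1078 CPM in E16.5 control against 432 to 529 in E16.5 HFD, and 797 to 1266 CPM in E18.5 control against 501 to 605 in E18.5 HFD. Further border macrophage genes, 17 of which 8 were tested, had 7, 0 and 0 positive differences at the 3 stages (medians 0.50, -0.69 and -0.55). Of 9 tested endothelial genes, 8, 0 and 0 were positive (medians 0.08, -0.38 and -0.20). Further microglial genes, 33 tested of 45, had 21, 10 and 19 (medians 0.20, -0.16 and 0.06). Phagocyte genes, 15 tested, had 11, 2 and 5 (medians 0.18, -0.16 and -0.06). Complement genes, 19 tested, had 11, 5 and 11. The part that differing amounts of meninges or vessel in the dissected tissue had in the Mrc1 values was not tested.

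**Figure D4:**
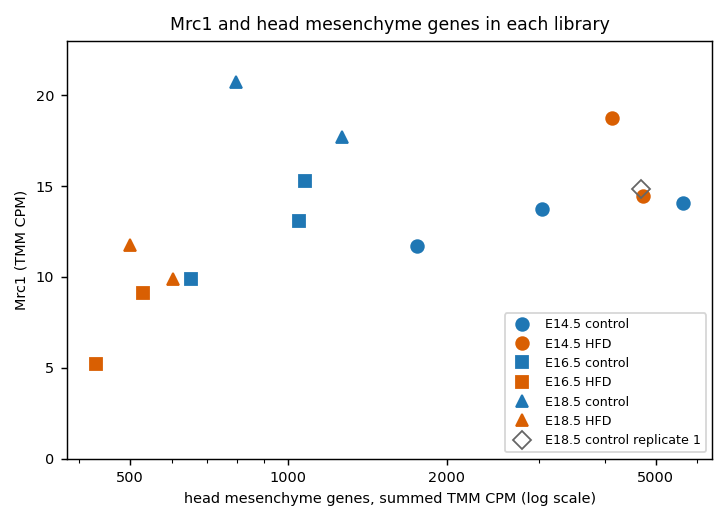
Mrc1 in TMM-scaled CPM (vertical axis, from 0) against the summed TMM-scaled CPM of the head mesenchyme genes (horizontal axis, log scale), 1 point a library, with shape for stage, blue for control and orange for HFD, and an open diamond for the library labelled E18.5 control replicate 1. At E16.5 and at E18.5 the HFD libraries are lower on both axes than their controls, and the diamond lies among the E14.5 libraries.

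Of 12 genes for ligands and partners of these receptors, all tested, 4 were called higher and 2 lower at E18.5 than at E14.5, where 29% of all genes were called higher and 28.9% lower. Both counts are near or below the share of genes at large. Il34, the neuronal ligand of CSF1R, had 0 to 0.231 CPM in the E14.5 libraries and 0 to 1.11 CPM at E16.5. At E18.5 it had 1.60 to 2.42 CPM, above all earlier libraries. Il34 passed the filter on low counts only through E18.5 libraries, so its call against E14.5 adds no support. Csf1, the other ligand, stayed near 12 CPM, with means of 11.7 ± 0.814, 12.2 ± 1.83 and 12.4 ± 0.818 CPM at the 3 stages (SD, n = 5, 5 and 4) and a difference of 0.08 ± 0.11 between E18.5 and E14.5. Cx3cl1, which encodes fractalkine, was 1.72 ± 0.20 higher at E18.5 than at E14.5 (adjusted p = 1.15e-05), and passed the test at each step. Adam17, a protease that sheds fractalkine and other surface proteins, fell by 1.06 ± 0.09 (adjusted p = 1.68e-06). The lipoproteins Apoe and Clu, which TREM2 can bind, were higher by 1.10 ± 0.17 (adjusted p = 0.000129) and 2.99 ± 0.19 (adjusted p = 4.53e-07). Neural cells make both. Tyrobp, the signalling adaptor of TREM2, differed by -0.01 ± 0.36.

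In the complement cascade, 7 of 19 tested genes were called higher and 1 lower at E18.5 than at E14.5, against 29% and 28.9% of all genes. Masp1, a protease of the lectin pathway, was 1.93 ± 0.18 higher (adjusted p = 3.61e-06), and Csmd1 and Susd4, complement inhibitors of neurons, were 3.31 ± 0.34 and 1.17 ± 0.14 higher (adjusted p = 1.06e-05 and 1.74e-05). C1r and C1s encode the proteases that sit on C1q. C1r fell by 0.91 ± 0.15 from E14.5 to E16.5 (adjusted p = 0.000425) and then rose by 0.56 ± 0.16 (adjusted p = 0.0244). C1s fell by 1.12 ± 0.33 at the first step (adjusted p = 0.0149), and its next step of 0.84 ± 0.35 missed the threshold (adjusted p = 0.103). C3, C4b and Itgam did not pass the filter on low counts.

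Of the 33 tested genes among further microglial markers, 4 were called higher and 7 lower at E18.5 than at E14.5, both below the 29% and 28.9% of all genes. Tmem119 fell by 4.36 ± 0.50 (adjusted p = 1.63e-05), with 4.52 to 29.7 CPM in the E14.5 libraries and 0.845 to 1.21 CPM at E18.5. Runx1, a factor of early blood progenitors, fell by 4.39 ± 0.47, with 4.06 to 13.3 CPM at E14.5 and 0.345 to 0.465 CPM at E18.5. Runx1 passed the filter on low counts only through E14.5 libraries, so its call adds no support. Mertk, a receptor for the engulfment of dying cells, fell by 2.11 ± 0.20 (adjusted p = 2.95e-06), and Olfml3, a secreted matrix protein, fell by 2.08 ± 0.20 (adjusted p = 3.89e-06). The library labelled E18.5 control replicate 1 held 23.8 CPM of Tmem119 and 7.89 CPM of Runx1, both in the E14.5 range. These genes are also active outside microglia, in mesenchyme and elsewhere, and the head mesenchyme genes fell in the same comparison (7 of 9 called lower, median -2.35), whereas Irf8, a myeloid factor, differed by -0.03 ± 0.37. The part of mesenchyme in these falls was not tested.

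Of the border macrophage genes, 1 of 8 was called higher and 4 lower in the same comparison, against 29% and 28.9% of all genes. Cd163, a scavenger receptor for haemoglobin, had 0 or 1 count in each of the 10 libraries of E14.5 and E16.5. The E18.5 libraries had 23, 14, 5 and 7 counts, the higher pair being control. Cd163 passed the filter on low counts only through E18.5 libraries, so its call against E14.5 adds no support. It had no count in the library set apart. Dab2, an endocytic adaptor, fell by 1.77 ± 0.15 (adjusted p = 1.56e-06), and Lyve1, a hyaluronan receptor, fell by 0.61 ± 0.20 (adjusted p = 0.0196). Pf4, a platelet and macrophage chemokine, fell by 1.49 ± 0.44. It passed the filter only through E14.5 libraries, so its call adds no support. Among phagocyte genes, 5 of 15 were called higher and 5 lower, close to the share of all genes. Fabp5, a fatty acid carrier, was higher by 0.82 ± 0.11 (adjusted p = 4.71e-05), while Axl, a relative of Mertk, fell by 1.32 ± 0.11 (adjusted p = 1.14e-06) and Igf1, a growth factor, fell by 2.36 ± 0.30 (adjusted p = 3.41e-05). Head mesenchyme genes fell in the same comparison (7 of 9 called lower, median -2.35). The part of mesenchyme in the falls of Dab2, Axl and Igf1 was not tested.

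Of the macrophage transcription factors, 3 of 14 were called higher and 4 lower, against 29% and 28.9% of all genes. Mef2c, which neurons also express, was higher by 2.49 ± 0.21 (adjusted p = 2.42e-06) and Mef2a by 0.59 ± 0.10 (adjusted p = 0.000332). Fli1, shared with endothelium, fell by 1.63 ± 0.26 (adjusted p = 0.000189).

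Across the 14 libraries, the 3 C1q genes correlated with each other at Pearson r of 0.77 to 0.86 on log2 CPM, and Csf1r with Mrc1 at 0.80. Cx3cr1 and Mrc1 correlated at -0.19. These libraries share depth, stage and tissue makeup, and the values only describe them. Within groups of stage and diet, r was 0.65 for Csf1r with Mrc1 and 0.73 for Csf1r with C1qc.

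Among the genes whose levels followed the mean of the 10 most closely, of 14705 compared, were Jcad (Pearson r = 0.928 over 14 libraries), Sparcl1 (0.889), Edar (0.880), Fcgrt (0.877), Lgals9 (0.870), Ksr1 (0.867) and Jak1 (0.863). Edar measured 0.507 to 1.12 CPM at E14.5 and E16.5 and 1.40 to 2.17 CPM in the E18.5 libraries of the fit. It reached the required mean of 1 CPM only through E18.5 libraries, so its place adds no support. Jcad, a junction protein of endothelium, measured 26.2 and 26.7 CPM in E16.5 HFD, its lowest values, and 45.0 and 46.0 CPM in E18.5 control, its highest. Sparcl1, a secreted glycoprotein of vessels and glia, measured 46.1 to 57.1 CPM at E14.5, 47.3 to 87.3 CPM at E16.5 and 76.0 to 110 CPM at E18.5.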

How the data were processed

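The deposited file held 1 estimated count (the expected count of RSEM, a whole number here) per gene and library, not normalised by the authors, for 32623 rat genes in 15 libraries. By the study's methods, Bowtie2 aligned the reads to rat build RGSC 6.0 (rn6) and RSEM 1.2.12 counted them; the notes of the submitters list HTSeq and not RSEM, and the methods cite a human annotation. No source used here says whether counting used strand, so reads of antisense neighbours cannot be told apart. None of the 10 genes shared all its counts with another gene.

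Counts were used as deposited. Genes were kept with filterByExpr by group (15354 genes) and scaled by TMM. One mean per stage and diet was fitted to 14 libraries with edgeR 4.0.16 (R 4.3.3), by robust quasi-likelihood, leaving out E18.5 control replicate 1 as labelled. P-values were adjusted by Benjamini-Hochberg over all tested genes, with 0.05 as the threshold, in 10 planned comparisons; changes within 1 diet, and counts of genes without overlap at E18.5 in all 15 libraries, were added after seeing the data. Standard errors were derived from each log2 fold change and its F statistic. Correlations used log2 CPM with a prior count of 2. Intervals and floors on single counts cover counting error only.

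The 10 genes, the 14 gene lists (203 genes, 192 of them in the table) and the rules were chosen with earlier results of these data known. All 10 genes were described. From each list up to 4 genes past the threshold with the smallest p at E18.5 against E14.5, up to 2 with the smallest p for diet at E14.5 and fixed partners (Csf1, Il34, Cx3cl1, Tyrobp, Irf8, Runx1, C1s, C1r, C3, C4b, Itgam and Apoe) could be named, and the 8 genes most like the mean of the standardised members at 1 CPM or more. One gene that this rule names is not reported here. The fit was tested on simulated data. Alternatives were all 15 libraries, RLE factors, no filter or a stricter one (10 counts in every library), DESeq2 1.42.0, limma-voom 3.58.1, a replicate block and leaving out each library. Promoter sequence came from RefSeq (GRCr8) and was matched by symbol.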

Additional observations from a re-analysis of the deposited data

Results flagged for a closer look

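The HFD difference of Mrc1 pointed in opposite directions at different stages with no overlap between diet groups. It was 0.34 on the log2 scale at E14.5, where both HFD libraries were above all controls. At E16.5 and E18.5 it was -0.83 and -0.84, with both below. The 95% interval at E14.5 included 0 (-0.18 to 0.85), and 10.8% of all genes were likewise above control in every library there. The differences between these effects did not pass the test across all genes (adjusted p = 0.416 for E16.5 and 0.719 for E18.5 against E14.5).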

How the results depend on the processing

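None of the 10 genes was called for diet, or for a change in the diet effect, under any alternative run. RLE factors, no filter, a minimum of 10 counts, DESeq2, limma-voom and the replicate block gave 1 member called for E16.5 against E14.5, 4 for E18.5 against E16.5 and 3 or 4 for E18.5 against E14.5. With all 15 libraries the last 2 counts were 0 and 2. Control libraries alone gave 0, 0 and 3, and HFD libraries alone 2, 1 and 2, with fewer samples in each. Leaving out 1 library gave 0 to 2, 3 to 5 and 2 to 4. Replicate numbers did not pair the diets (correlations of deviations -0.13 to 0.24 over 5 pairs), and the replicate block left the member counts at 1, 4 and 4.

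Some differences changed sign, none of them called before or after. With all 15 libraries, diet at E18.5 became 0.083 for C1qb and 0.17 for C1qc. With the replicate block, diet at E18.5 became -0.10 for Spi1, and with limma-voom its average over stages became 0.0012. In controls alone E16.5 against E14.5 became 0.079 for Csf1r, -0.081 for Aif1 and 0.034 for C1qb, E18.5 against E16.5 became -0.030 for P2ry12, and E18.5 against E14.5 became 0.55 for Mrc1 (-0.62 in HFD alone) and 0.048 for Spi1. In HFD alone E16.5 against E14.5 became -0.11 for P2ry12 and E18.5 against E14.5 -0.095 for Csf1r. Leaving out 1 library also turned signs. Diet at E14.5 then ranged from -0.022 to 0.54 for Csf1r, -0.52 to 0.043 for Cx3cr1, -0.31 to 0.46 for P2ry12 and -0.20 to 0.30 for C1qc. Diet at E16.5 ranged from -0.75 to 0.11 for Aif1 and -0.086 to 0.35 for Cx3cr1, and diet at E18.5 from -0.34 to 0.082 for C1qb, -0.29 to 0.14 for C1qc and -0.14 to 0.35 for Spi1. The average diet effect ranged from -0.023 to 0.19 for Cx3cr1 and -0.24 to 0.13 for Spi1. E16.5 against E14.5 ranged from -0.00040 to 0.39 for P2ry12, and E18.5 against E14.5 from -0.016 to 0.26 for Csf1r and -0.17 to 0.0099 for Mrc1. The causes were not tested. Genes near 1 CPM (Cx3cr1, Spi1) rest on few counts, and 2 litters in a group limit every diet comparison.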
